A study of Mus musculus with 2 samples.

Results

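The nuclear subunits of respiratory complexes II to V were examined in total RNA from mouse cerebral cortex. Members were chosen by gene name alone: Sdha to Sdhd, every name beginning with Uqcr, Cyc1, Cycs, the names from Cox4 to Cox8 and every name beginning with Atp5, each with at least 1 protein-coding transcript and without the ending that marks a pseudogene. The rule gave 50 gene entries of 55536 annotated genes, of which 22015 are nuclear protein-coding genes. They comprise 4 entries of complex II, 9 of complex III, cytochrome c, 18 of complex IV and 18 of complex V. The name Atp5o is carried by 2 entries, so the 50 entries have 49 names. They lie on 19 chromosomes, and 1 of them, Cox7b, is X-linked.

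The mice were B6CASTF1/J females, first-generation offspring of the C57BL/6J and CAST/EiJ strains, aged 18 to 20 months, and the tissue was their left cerebral cortex. All samples form 1 group of 2 libraries, biological replicates 1 and 2, made from 300 ng of RNA with no treatment and no contrast. Both biosamples point to the same donor entry in the labels, so the spread between them may be technical. With 1 library on each side, no test between libraries was possible and no p-value is given.

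Electrons from metabolic fuels pass along the inner mitochondrial membrane to oxygen. Complex II takes them from succinate to ubiquinone, complex III from ubiquinol to cytochrome c, and complex IV, cytochrome c oxidase, from cytochrome c to oxygen. Complexes III and IV pump protons, and complex V, the ATP synthase, uses the proton gradient to make ATP, on which neurons depend for ion pumping and synaptic transmission. Complex II is encoded wholly in the nucleus, while complexes III, IV and V also contain subunits made from mitochondrial DNA. Several complex IV subunits exist as isoforms, a form found in most tissues and forms known from muscle, lung or testis.

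Levels are in TPM, a unit in which read counts are scaled by transcript length and then to the same total in every library. They come from the deposited gene table of each library, which was made from a transcriptome alignment. A second kind of table, called alignment-free here, was made from the reads with an index. The gene tables held 32504959 expected counts in replicate 1 and 24899781 in replicate 2. Counts on genes were 32357983 and 24798683, against which the 3 counts that a count of 0 allows amount to 0.0927 and 0.121 CPM (counts scaled to library size), for counting error only. Cortical markers matched the labelled tissue, with the synaptic gene Snap25 at 1506 and 1393 TPM. The 6 striated muscle markers summed to 14.1 and 15.2 TPM, and 3 of them were at 1 TPM or more in both libraries. These were Myh7 (6.82 and 6.86 TPM), Acta1 (5.07 and 4.67 TPM) and Myh6 (2.13 and 3.56 TPM). The other 3, Ckm, Actc1 and Mb, were at 0.13 TPM or less. Of the 4 testis germ cell markers, Prm1, Prm2 and Tnp1 had 0 counts in both libraries and Ddx4 had 0.67 and 0.81 TPM.

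Short, abundant genes of this kind have processed pseudogene copies, intronless insertions of their RNA elsewhere in the genome. Coding stretches of 4 members are shown first with the matching stretch of a copy, because the gene tables list counts on both gene and copy. Each is 100 bases long, taken from GENCODE M21 transcripts on mm10 and printed 5′ to 3′ on the strand of the gene. The Atp5g2 stretch (chr15:102665148-102665247, minus strand, coding exon) occurs without any difference in the transcribed processed pseudogene Gm10175 (chr7:23947001-23947100, minus strand).

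Atp5g2 and Gm10175: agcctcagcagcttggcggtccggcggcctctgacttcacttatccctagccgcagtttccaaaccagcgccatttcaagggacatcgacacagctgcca

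The Atp5l stretch (chr9:44914712-44914811, minus strand, coding exon) occurs without any difference in Gm10221 (chr5:24581711-24581810, minus strand).

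Atp5l and Gm10221: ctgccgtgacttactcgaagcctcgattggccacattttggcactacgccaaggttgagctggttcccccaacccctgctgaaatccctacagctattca

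The Cox7c stretch (chr13:86045770-86045869, minus strand, coding exon) occurs unchanged in Gm12338 (chr11:75599780-75599879, minus strand) and with 1 differing base, in capitals, in Gm10012 (chr17:25901937-25902036, plus strand).

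Cox7c against Gm10012: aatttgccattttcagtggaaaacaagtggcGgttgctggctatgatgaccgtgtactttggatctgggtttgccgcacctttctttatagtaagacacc
Gm10012: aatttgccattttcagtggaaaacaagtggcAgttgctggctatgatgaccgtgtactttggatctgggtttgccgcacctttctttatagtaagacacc

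The Cox7a2l stretch (chr17:83502638-83502737, minus strand, coding exon) was set against Gm6969 (chr12:24638704-24638803, minus strand) position by position, without gaps. So compared, 9 bases differ, in capitals, all close to the 5′ end. The run gatggt that opens the Gm6969 stretch stands a few bases further on in Cox7a2l. The capitals therefore need not be 9 separate base changes, since inserted or deleted bases were not allowed for. The remaining 91% of positions are identical.

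Cox7a2l: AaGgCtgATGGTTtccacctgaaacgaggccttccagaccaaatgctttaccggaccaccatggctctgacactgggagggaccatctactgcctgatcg
Gm6969: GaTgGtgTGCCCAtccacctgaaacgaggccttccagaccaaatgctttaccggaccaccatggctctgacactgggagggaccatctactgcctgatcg

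Nearly all members were present at substantial levels. At least 1 TPM in both libraries was reached by 46 of the 50 entries, against a background of 58.3% of nuclear protein-coding genes. A mean of 10 TPM or more was reached by 41 members, whose median level of 150.2 TPM lay above that of 96.5% of the nuclear protein-coding genes at 1 TPM or more in both libraries. All members together took 0.422% of the counts on genes in replicate 1 and 0.361% in replicate 2. Across all 50 entries the libraries had medians of 147 and 125 TPM. The levels of the 41 members were closely correlated between the libraries (Pearson r = 0.996 on log2(TPM + 1), across genes that share a library and so are not independent).

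**Figure D1:**
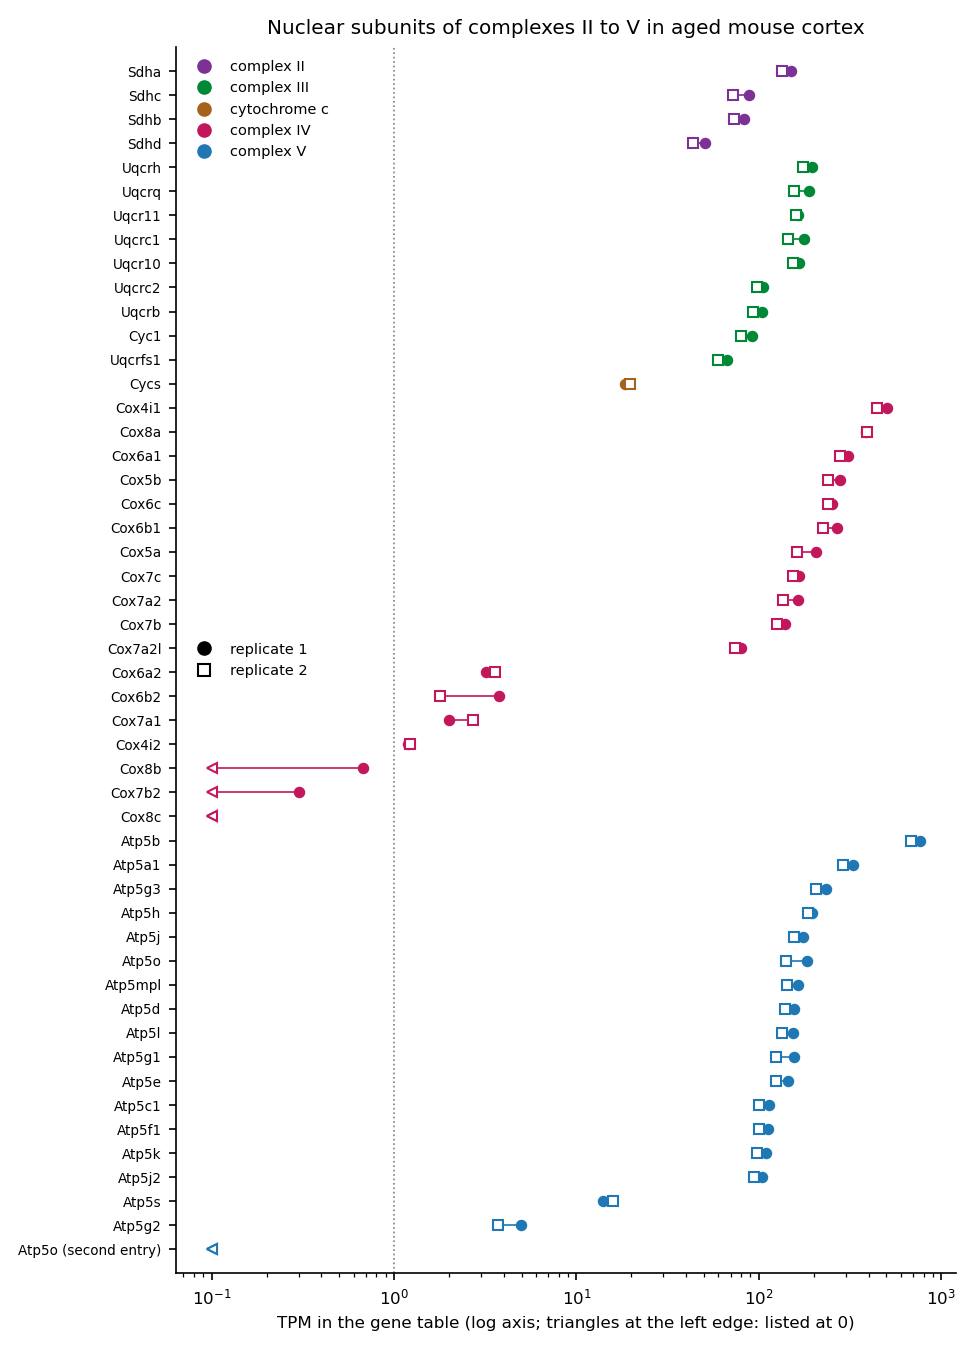
TPM of each of the 50 entries (log axis) in replicate 1 (filled circles) and replicate 2 (open squares), ordered by mean within each complex; triangles mark entries listed at 0 and the dotted line marks 1 TPM. Most members sit between 43.7 and 767 TPM in both libraries, while 7 isoforms of complex IV, Atp5g2, Cycs, Atp5s and the second Atp5o entry lie lower.

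The 4 subunits of complex II spanned a 3.03-fold range. Sdha, the flavoprotein that oxidizes succinate (chr13:74322254-74350280, minus strand), was the highest at 151 and 135 TPM in replicates 1 and 2. Sdhc, which with Sdhd anchors the complex in the membrane, had 88.5 and 72.5 TPM. Sdhb, the iron-sulfur subunit, had 82.8 and 72.8 TPM. Sdhd was the lowest at 50.5 and 43.7 TPM. The order of Sdha above Sdhc and Sdhb above Sdhd therefore held in both libraries. In the gene tables Sdhb and Sdhc differed by less than the spread between libraries. In the alignment-free tables Sdhb (155 and 138 TPM) was well above Sdhc (83.3 and 67.5 TPM), and Sdhd was again the lowest (73.0 and 61.2 TPM). The complex had gene-table medians of 85.6 and 72.6 TPM, the lowest of the 4 complexes.

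All 9 members of complex III lay within a 2.93-fold range in the gene tables, with medians of 164 and 145 TPM. Uqcrh, the hinge protein that helps cytochrome c dock (chr4:116066965-116075071, minus strand), led with 197 and 175 TPM. Uqcrq, a small subunit next to cytochrome b, followed with 189 and 157 TPM. The core protein Uqcrc1 had 177 and 145 TPM, and its partner Uqcrc2 had 105 and 97.5 TPM. Of the catalytic subunits made in the nucleus, Cyc1, which carries a heme, stood at 92.2 and 79.4 TPM. The Rieske iron-sulfur protein Uqcrfs1 was the lowest of the complex at 66.9 and 60.1 TPM. The small subunits Uqcr11 and Uqcr10 lay between 154 and 167 TPM in both libraries, and Uqcrb at 104 and 92.6 TPM. In the gene tables both catalytic subunits were below every small subunit and both core proteins. In the alignment-free tables Uqcrfs1 was again the lowest, but Cyc1, at 251.5 and 198.7 TPM, was above Uqcrb (182 and 157 TPM) and Uqcrc2 (232 and 198.0 TPM).

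Cytochrome c itself, Cycs (chr6:50562563-50566538, minus strand), the mobile carrier between complexes III and IV, was listed at only 18.5 and 19.8 TPM. The alignment-free tables gave 229.7 and 198.3 TPM for the same libraries. The ratio of the means was 11.2. The counts were 1148 and 705 in the gene tables against 2048 and 1275 in the alignment-free tables. The transcripts given the largest share also differed in length. The alignment-based tables gave 89.4% and 63.8% of the gene's TPM to the coding transcript Cycs-202 of 3123 bases, and the alignment-free tables gave 90.1% and 91.0% to Cycs-201, a retained-intron transcript of 607 bases. The level of cytochrome c relative to the complexes therefore depended on the table.

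After Atp5b of complex V, the 2 most abundant members belonged to complex IV. Cox4i1, a regulatory subunit that binds ATP and ADP (chr8:120668222-120674207, plus strand), had 505 and 442 TPM. Cox8a, the smallest subunit, followed with 387 and 391 TPM. Cox6a1 had 308 and 279.5 TPM, Cox5b, which binds zinc, 278 and 239 TPM, Cox6c 252 and 241 TPM, and Cox6b1, which faces the intermembrane space, 267 and 225.5 TPM. Of the remaining subunits, Cox5a, Cox7c, Cox7a2 and Cox7b lay between 126 and 206 TPM. The 11 members with a mean of 10 TPM or more spanned a 6.16-fold range. The lowest of them was Cox7a2l, with 79.6 and 74.2 TPM. It is a subunit relative described as joining complexes III and IV into supercomplexes, a role not tested in these mice.

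Complex V was led by the catalytic beta subunit Atp5b (chr10:128083273-128090391, plus strand), the most abundant of all members at 767 and 681 TPM. The alpha subunit Atp5a1, with which it forms the catalytic head, had 329 and 290.2 TPM. The head contains alpha and beta in equal number, but the Atp5b level was 2.33 and 2.35 times that of Atp5a1 (2.10 and 1.95 times in the alignment-free tables). The subunits of the central stalk were lower: Atp5c1 (gamma) had 114 and 99.7 TPM, Atp5d (delta) 157 and 139 TPM, and Atp5e (epsilon) 144 and 125 TPM. Of the peripheral stalk, Atp5o had 183 and 141 TPM, Atp5h 195 and 185 TPM, Atp5j 174 and 156 TPM, and Atp5f1 113 and 100.2 TPM. Members in the membrane part that the isoform groups do not cover, Atp5l, Atp5k, Atp5j2 and Atp5mpl, lay between 94.3 and 164 TPM. Of 18 entries, 16 had a mean of 10 TPM or more.

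The other 2 were Atp5g2, described below with its isoforms, and a second entry named Atp5o (chr16:91684398-91926982, minus strand). That entry overlaps the annotated Atp5o gene and also Donson, Cryzl1 and Itsn1, and it was listed at 0 counts in both gene tables and at 2.87 and 3.66 TPM in the alignment-free tables. Atp5s, named as a coupling factor and not a core subunit, had 14.0 and 15.8 TPM.

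In 7 groups of isoforms, the form found in most tissues held nearly the whole signal wherever the alternative is a tissue isoform. Cox4i1 made up 99.7% ± 0.0281 (SD, n = 2) of the Cox4i pair, Cox6a1 98.9% ± 0.162 of its pair and Cox6b1 98.9% ± 0.431 of its pair. The isoforms known from muscle were low. Cox6a2 had 42 and 35 counts (3.21 and 3.57 TPM) and Cox7a1 14 and 14 counts (1.99 and 2.71 TPM), while Cox8b had 4 counts in replicate 1 and 0 in replicate 2. Cox4i2, the isoform known from lung and oxygen-sensing cells, had 17 and 13 counts (1.19 and 1.22 TPM). The 5 mural cell markers summed to 61.4 and 51.4 TPM, and 4 of them reached 1 TPM in both libraries. Vtn was the highest at 36.2 and 26.4 TPM, followed by Rgs5 (15.6 and 17.1 TPM) and Acta2 (6.45 and 5.40 TPM). Abcc9 (2.00 and 1.97 TPM) and Kcnj8 (1.07 and 0.55 TPM) were the lowest. The part of vascular cells in the Cox4i2 level was not tested. Which cortical or other cells gave the Cox6a2 and Cox7a1 reads was not tested either.

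The testis isoforms were also low. Cox6b2 had 36 counts in replicate 1 and 10 in replicate 2 (3.77 and 1.78 TPM), Cox7b2 had 3 and 0 counts, and Cox8c had 0 counts in both libraries. For Cox8c, the 3 counts that a count of 0 allows correspond to 0.0885% of the Cox8 group's counts, averaged over both libraries. The low isoforms could therefore be placed far below their partners, from 50.4 to 424 times in the libraries where both had counts in the gene tables and the alternative had 10 counts or more. Their order among themselves rests on few reads.

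Where the group holds several forms used together, no single one dominated. In the Cox7a group, Cox7a2 held 65.4% ± 1.99 and Cox7a2l 33.6% ± 1.66 of the summed TPM (71.4% and 28.1% in the alignment-free tables). The 3 Atp5g genes encode the same mature c subunit of the ATP synthase rotor with different import sequences. Atp5g3 had 234 and 205 TPM, Atp5g1 156 and 125 TPM, and Atp5g2 4.95 and 3.71 TPM. Their shares were 60.4%, 38.4% and 1.18% in the gene tables. In the alignment-free tables the shares were 50.6%, 25.6% and 23.8%, so Atp5g2 (chr15:102662864-102672352, minus strand) was either a trace or nearly as abundant as Atp5g1, depending on the table.

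**Figure D2:**
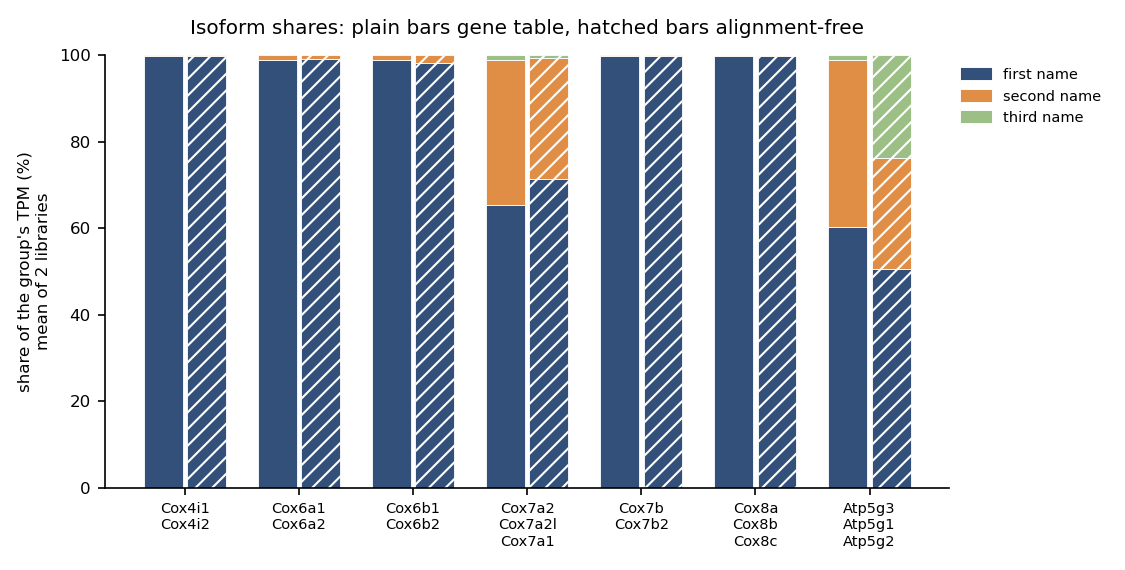
Share of each isoform in its group's summed TPM (percent, mean of 2 libraries), in the gene tables (plain bars) and the alignment-free tables (hatched bars), stacked from the bottom in the order of the names under each bar pair. Atp5g2 holds 1.18% in the gene tables and 23.8% in the alignment-free tables, while in the Cox4i, Cox6a, Cox6b, Cox7b and Cox8 groups 1 form holds over 98% in both.

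The Atp5g2 counts that differed between the tables were compared with those of the copy printed above, which GENCODE classes as a transcribed processed pseudogene. In the gene tables Atp5g2 had 68.7 and 38.1 expected counts and Gm10175 had 1366 and 881. Their sums, 1435 and 919, were whole numbers. In the alignment-free tables Atp5g2 had 1331 and 820 counts, and Gm10175 close to 0 in replicate 1 and 10.5 in replicate 2. In the gene tables the TPM of Atp5g2 and its copies summed to 116 and 99.4 TPM. All 615 stretches of 31 bases in Gm10175 occur in protein-coding Atp5g2 transcripts, so a read lying within such a stretch matches both, and the tables do not show which locus it came from.

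A copy was defined as a processed pseudogene that shares at least 50 stretches of 31 bases with a member's protein-coding transcripts. By this definition 19 members had at least 1 copy and 39 distinct copies were found, of which 21 had 0 counts in both gene tables. Copies with 100 counts or more in replicate 1 numbered 8 in the gene table and 1 in the alignment-free table. Besides Gm10175, the copies held 35.8% and 33.8% of the combined counts for Cox7c, 21.2% and 17.7% for Atp5l, 19.2% and 16.4% for Atp5h, and 14.6% and 15.3% for Cox7a2l. For Cycs it was 9.80% and 12.6%, and for Atp5g1 7.88% and 10.03%. In the alignment-free tables none of these 7 members had over 1.39% of the combined counts on copies.

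Of the 2 Cox7c copies, Gm12338 was listed above the gene itself on the TPM scale and Gm10012 below it. Gm12338, in which every stretch of 31 bases matches Cox7c, was listed at 735 and 452 counts, and Gm10012, with the differing base printed above, at 174 and 124 counts. Per length, the 350.6 and 288.1 TPM of Gm12338 exceeded the 166 and 155 TPM of Cox7c itself. Gm10012 had 28.3 and 26.9 TPM. Atp5o went the other way. Its copy Gm5436 had 28.8 and 23.1 counts in the gene tables and 142 and 93.4 in the alignment-free tables.

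Fractional expected counts, which arise when reads are shared out among several genes, were found for 11 of the 50 entries. The share was 15.3% for nuclear protein-coding genes at 1 TPM or more in both libraries. Among short, abundant genes fractional counts were more frequent than among the members. They were found for 112 of 230 nuclear protein-coding genes of 500 to 1000 bases and a mean of 50 TPM or more. Of the 11, 10 had a copy. Adding the copies' counts gave a whole number, within 0.05 counts, for 9 of them in every library in which they were fractional. Cycs was the exception among members with a copy, and Cox5b had no copy by this definition. For these 9 genes the fractional parts of gene and copies thus added up.

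**Figure D3:**
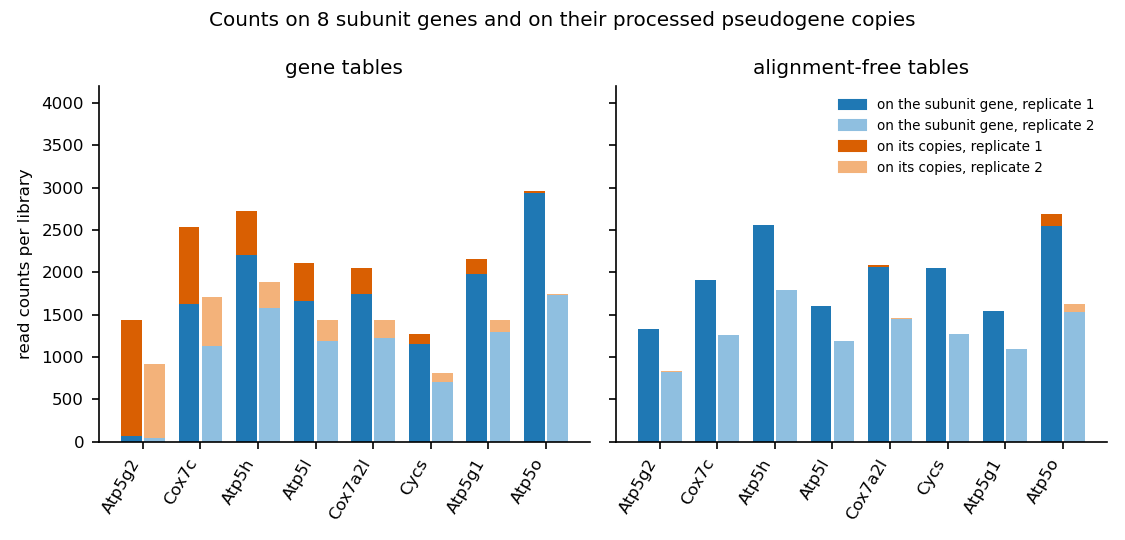
Read counts on 8 subunit genes (blue) and on their processed pseudogene copies (orange, stacked above) in the gene tables (left) and the alignment-free tables (right), replicate 1 in dark and replicate 2 in light shades. For Atp5g2 in replicate 1, a copy holds 1366 of 1435 counts on the left and close to 0 on the right.

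Most other members were also higher in the alignment-free tables. Over the 41 members with a mean of 10 TPM or more, the alignment-free TPM was higher for 40, with a median ratio of 1.78. Over nuclear protein-coding genes at 1 TPM or more in both libraries the median ratio was 1.62, and nuclear protein-coding genes took 44.0% and 44.2% of all TPM in the gene tables but 74.6% and 75.2% in the alignment-free tables. The members are short, with a median length of 663 bases against 2531 bases for those genes. Among genes under 700 bases the ratio was 1.78 for 21 members and 1.75 for 377 nuclear protein-coding genes. Within that length class the members therefore lay close to other genes. The ratio was largest for Atp5g2 (41.4) and Cycs (11.2), and Atp5e followed among members at 1 TPM or more (3.27). It was smallest for Sdhc (0.936), Cox6a2 (1.23) and Cox6b1 (1.24).

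**Figure D4:**
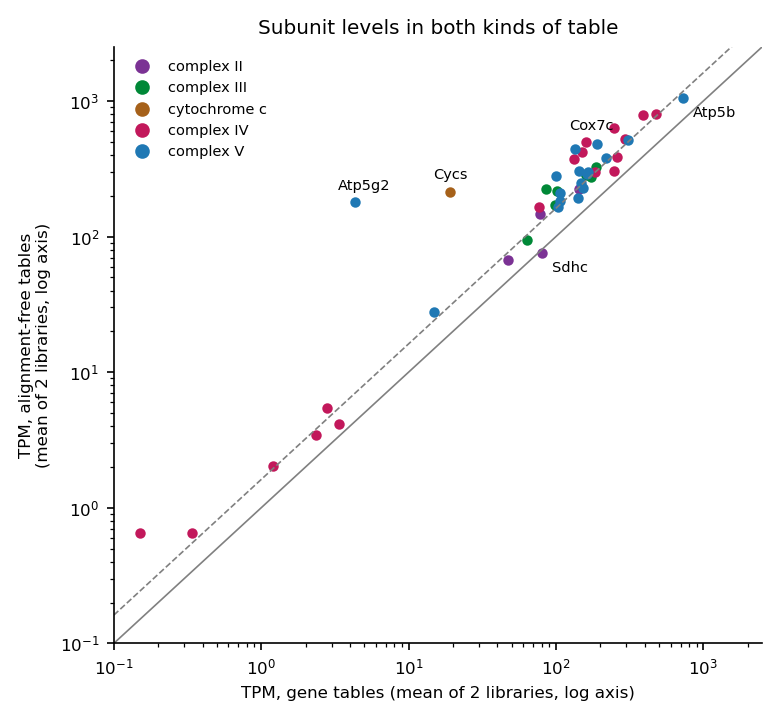
Mean TPM of each member in the alignment-free tables against the gene tables (both axes log; members at 0 in either are left out), with the line of equal values (solid) and the median ratio of 1.62 over nuclear protein-coding genes (dashed). Atp5g2 and Cycs lie far above both lines and Sdhc just below the line of equal values.

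The transcript with the largest share of a member's TPM was compared across the tables. The same transcript led in all 4 transcript tables for 24 of the 41 members, and each of these was protein-coding. For 13 members the leading transcript differed between the kinds of table but not between libraries. For 4, namely Cyc1, Cox7b, Atp5h and Atp5s, it also differed between libraries. A transcript not classed as protein-coding led for 3 and 4 members in the alignment-based tables and for 10 and 8 in the alignment-free tables.

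Abundant members were among those whose leading transcript differed. For Uqcrh the alignment-based tables gave 54.7% and 56.1% to Uqcrh-205, a retained-intron transcript of 423 bases, and the alignment-free tables gave 93.9% and 94.4% to Uqcrh-204, a processed transcript of 579 bases. Cox6a1 was led by the coding Cox6a1-201 (98.5% and 97.0%) in one kind and by the retained-intron Cox6a1-202 (92.6% and 90.3%) in the other. Atp5j showed the opposite direction, with the retained-intron Atp5j-208 at 81.1% and 76.7% in the alignment-based tables and the coding Atp5j-203 at 81.8% and 80.8% in the alignment-free tables. Cox5b likewise passed from the processed transcript Cox5b-205 (69.5% and 66.9%) to the coding Cox5b-201 (72.7% and 74.9%). For Cox4i1 and Atp5g1 both candidates were coding: Cox4i1-201 (95.4% and 94.8%) against Cox4i1-205 (83.4% and 79.5%), and Atp5g1-202 (97.1% and 95.6%) against Atp5g1-203 (98.1% and 96.8%).

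RNAs of factors that act on complexes II to V had lower medians than the subunits. All 33 genes of this list, assembly factors and Atpif1, reached 1 TPM in both libraries, with medians of 15.8 and 15.1 TPM. The highest was Atpif1, an inhibitor of ATP synthase and not an assembly factor, with 197 and 183 TPM, followed by the complex III factor Uqcc2 with 115 and 102 TPM and the copper chaperone Cox17 with 59.9 and 57.5 TPM. The complex II factors Sdhaf3 (2.86 and 2.91 TPM) and Sdhaf1 (3.21 and 3.42 TPM) were the lowest. The complex I names without assembly factors, 38 genes, had medians of 89.2 and 82.6 TPM. Their most abundant was Ndufa4, now assigned to complex IV and outside the naming rule used here, with 314 and 263 TPM.

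Most mitochondrially encoded partners were listed above the nuclear subunits. In complex IV, mt-Co1 had 6482 and 5846 TPM and mt-Co3 2027 and 2010 TPM. In complex III, mt-Cytb had 3274 and 3067 TPM. In complex V, mt-Atp6 had 2907 and 2559 TPM and mt-Atp8 1531 and 1639 TPM. In the gene tables these 5 were above the most abundant nuclear subunit, Atp5b, in both libraries, and mt-Co2, with 272 and 204 TPM, was below it. The alignment-free tables differed for 2 of the 6: they gave mt-Co2 1846 and 1860 TPM, above the 1138 and 951 TPM of Atp5b, and listed mt-Atp8 at 0. Expected counts of 4 of the 6, mt-Co2 among them, were fractional, that is, shared with other entries, so their levels are uncertain.

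Nearly all members were slightly lower in replicate 2 than in replicate 1. The log2 ratio of scaled counts, replicate 2 over replicate 1, could be computed for 46 members, those averaging at least 10 counts. It was below 0 for 43 of them, against 55.8% of nuclear protein-coding genes. The members' median was -0.22, against 0.00025 over all 18246 genes. By complex the medians were -0.24 for complex II, -0.21 for complex III, -0.18 for complex IV and -0.23 for complex V. The counting interval of the ratio (95%, exact binomial, counting error only) lay wholly below 0 for 37 members and included 0 for 9. In bulk tissue, fewer cells of a type and less RNA per cell cannot be told apart.

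This difference was small and shared with other genes. Of nuclear protein-coding genes with 500 to 1000 bases and a mean of 50 TPM or more, 93.9% were also lower in replicate 2, close to the 93.5% of the members. Against the median of these genes the members' median was -0.06. The complex I names without assembly factors were lower for 37 of 38 genes, with a median of -0.22, and 25 of the 33 genes of assembly factors and Atpif1 were lower. All 5 neuronal markers were also lower, from Slc17a7 (-0.07) to Pvalb (-0.50). Of the astrocyte markers, Gfap (-0.90) and Aldoc (-0.27) were lower and Slc1a2, the most abundant, was higher (0.048). Of the endothelial markers, Cldn5 was lower (-0.68) and Slc2a1 higher (0.81). Of the 5 mural markers, 3 were lower, from Acta2 (-0.37) to Kcnj8 (-1.12), and Rgs5 (0.040) and Abcc9 (0.026) were higher. Both oligodendrocyte and both microglia markers were lower, with medians of -0.21 and -0.31. Their part in the members' difference was not tested.

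Past 2-fold was 1 member, Cox6b2, against 5.46% of all genes past 2-fold in either direction and 1.01% more than 2-fold lower. It was also the only member past 1.5-fold, against 14.3% of all genes. Expressed coding genes passed these limits less often than all genes. Of 12842 nuclear protein-coding genes at 1 TPM or more in both libraries, 47 were past 2-fold and 393 past 1.5-fold. Of the 230 with 500 to 1000 bases and a mean of 50 TPM or more, 0 were past 2-fold and 5 past 1.5-fold. Cox6b2 had 36 and 10 counts and a log2 ratio of -1.33 (counting interval -2.64 to -0.43). The next lowest were Atp5g2 (-0.46, interval -1.09 to 0.11) and Atp5o (-0.39, interval -0.47 to -0.30). Highest were Cox7a1 (0.33), Cox6a2 (0.11) and Atp5s (0.02), each with an interval that includes 0. With 1 library on each side, none of these differences has a replicate check.

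**Figure D5:**
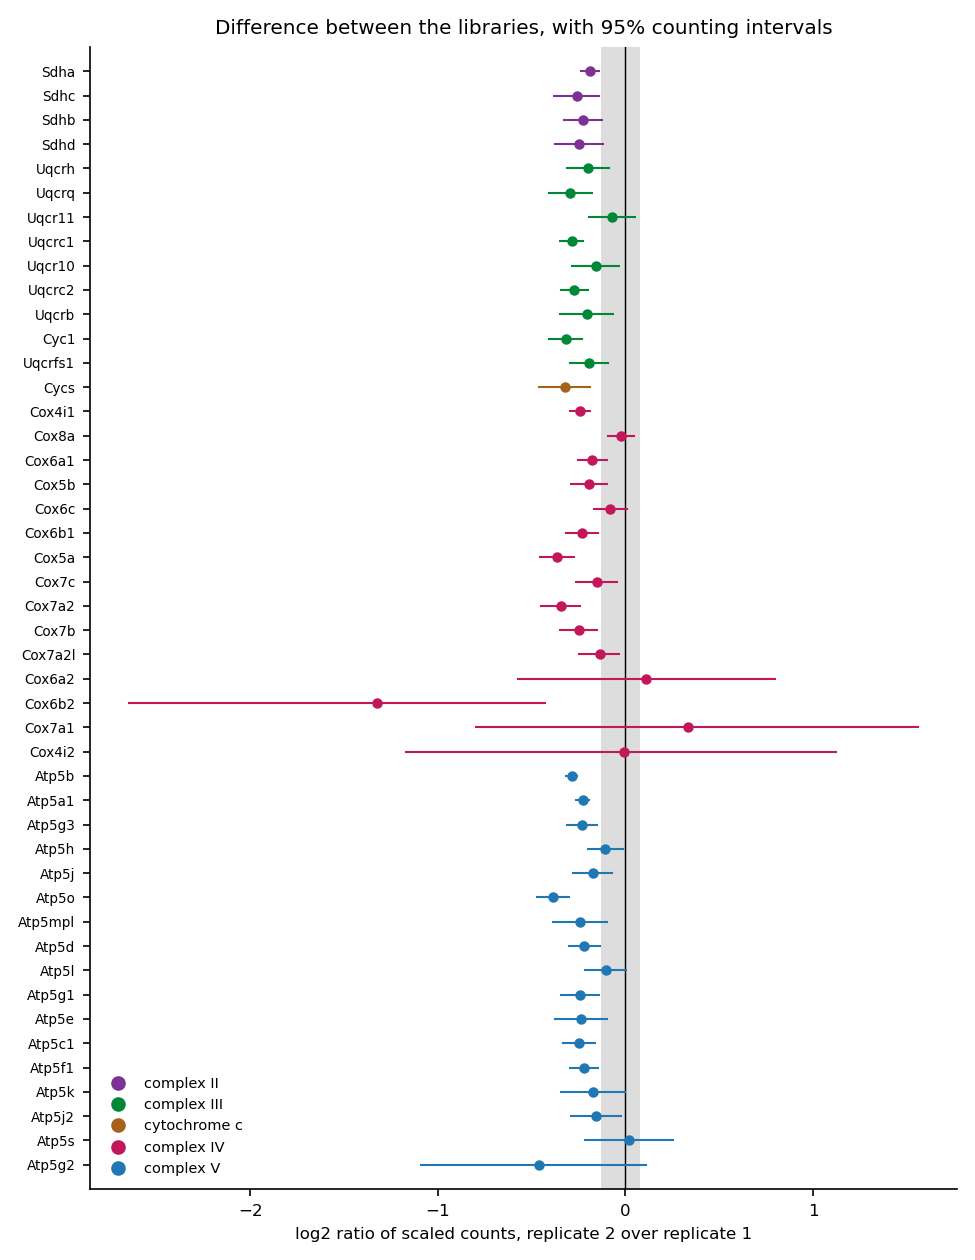
Log2 ratio of scaled counts, replicate 2 over replicate 1, for the 46 members that could be compared (points, with 95% counting intervals as lines), coloured by complex; the grey band runs between the lower and upper quartiles of nuclear protein-coding genes with a mean of 10 TPM or more, -0.13 to 0.08. Most points lie left of the band, and Cox6b2 lies farthest left at -1.33.

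Promoter sequence was compared because members of these complexes are known targets of the nuclear respiratory factor NRF1 and of ETS-family factors such as GABP. RefSeq windows (GRCm38.p6), running from 250 bases before to 50 bases after a gene's start in RefSeq, were given for 35 of the 49 names. Motifs were sought on both strands. The NRF1 core, of which matches stand in capitals in the stretches printed below, with any base at its 6th position, was present in windows of 10 of the 35 (28.6%), against 7.44% of nuclear protein-coding genes and 14.5% of those with a mean of 50 TPM or more. The ETS core CCGGAAG was present for 12 (34.3%), against 13.4% and 17.4%. The core AAGGTCA of estrogen-related receptors was present for 5 (14.3%), against 4.62% and 4.26%. The CCAAT box was present for 20 (57.1%), against 42.1% and 41.4%, and TATAAA for 3 (8.57%), against 14.3% and 9.96%. The short YY1 core AAGATGG was present for 3 (8.57%), against 7.26% and 10.3%, and its longer form, which contains the short one, for none, against 1.12% and 1.86%. These are letter matches in a short window and no measure of binding.

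The NRF1 core is shown for a member of each of complexes II, IV and V that holds it before the RefSeq start. The core is in capitals, 5′ to 3′ on the gene's strand, from RefSeq GRCm38.p6: Sdha (chr13:74350304-74350363, minus strand), Cox6a1 (chr5:115349086-115349145, minus strand) and Atp5h (chr11:115420026-115420085, minus strand).

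Sdha: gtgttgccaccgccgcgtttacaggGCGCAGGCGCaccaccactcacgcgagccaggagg
Cox6a1: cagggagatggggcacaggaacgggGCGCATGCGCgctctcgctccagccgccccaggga
Atp5h: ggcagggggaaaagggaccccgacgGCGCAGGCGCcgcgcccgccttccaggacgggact

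The core begins 98, 162 and 141 bases before the RefSeq start in Sdha, Cox6a1 and Atp5h. For Sdha this start differs from the one in the gene coordinates given further above. The other members with it were Atp5c1, Atp5g2, Atp5g3, Atp5k, Atp5o, Sdhd and Uqcrc1. Of these, Atp5g3 was more abundant than Atp5h, and Uqcrc1 belongs to complex III. Among members with a window and a mean of 10 TPM or more, the 9 with the core had a median of 161 TPM and the 21 without it 150.2 TPM.

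Annotated neighbours overlap 19 members, 7 on the same strand and 15 on the opposite strand. The counting strand is not given in the sources used here, so reads of an overlapping partner cannot be set apart. The most abundant such neighbour was Cbarp, opposite Atp5d, at 178.5 and 181 TPM, which is above the 157 and 139 TPM of Atp5d, so the level of Atp5d is uncertain. Cox6c overlaps Vps13b (18.2 and 23.1 TPM), Atp5f1 overlaps Wdr77 (22.8 and 22.8 TPM) and Cox4i1 overlaps Emc8 (30.5 and 28.1 TPM), each far below the subunit.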

How the data were processed

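Total RNA-seq tables of 2 libraries were used. Per the file headers, the authors deposited expected counts and TPM for each gene and transcript from a transcriptome alignment, and estimated counts and TPM for each transcript from reads and an index. Per the labels and the text deposited with the tables, values refer to mm10 and GENCODE M21. Aligner and quantifiers: not given in the sources used here. Median effective length is 99 bases under transcript length in the alignment-based tables and 339 under it in the alignment-free tables, for entries of 2000 bases or more in replicate 1.

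Members were joined by gene identifier, and alignment-free values were summed per gene. The members and lists were chosen with earlier results of these data known. All members may be named. Those given in full are mainly the extremes of each complex, the isoform groups, cytochrome c and the largest ratios each way. Where the leading transcript differs, it is given for some of the members only.

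For the difference between libraries, deposited expected counts were rounded, only genes averaging at least 10 counts entered, and log2 CPM with a prior count of 2 was scaled with TMM in edgeR 4.0.16 (R 4.3.3). DESeq2 1.42.0 size factors were an alternative. Intervals are exact conditional binomial ones at 95%. The ratio step was tested on simulated data with 200 changed genes. Copies and motifs were found with Python 3.11.15.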

Additional observations from a re-analysis of the deposited data

How the results depend on the processing

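The median TPM depended on the table and its scaling. From the alignment-free tables it was 242 for all members, 111 for complex II, 274 for complex III, 303 for complex IV and 266 for complex V. Rescaled to nuclear protein-coding genes it was 309, 179, 350, 321 and 322, in the same order. The deposited gene tables gave 136, 79.1, 154, 141 and 142. These lists include the low isoforms of complex IV. Over members with a mean of 10 TPM or more, the medians of the library means were 150.2, 79.1, 161, 246 and 146. The place of complex IV relative to complexes III and V thus depended on the low isoforms and on the table. With the low isoforms included, its median was the highest in the alignment-free tables but below those of complexes III and V in the gene tables. Complex II was the lowest in all of these. Leaving out each replicate gave 125 to 147 TPM for all members.

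The median share of the leading isoform over the 7 groups was 98.9%, 99.2% in the alignment-free tables and 99.0% to 99.2% when a replicate was left out. Members past 2-fold between libraries numbered 1, but 3 without a filter on low counts and 0 with a mean of 100 counts or more, also by the ratio of deposited TPM (an alternative chosen after seeing the data). The members' median log2 ratio of -0.22 became -0.28 with alignment-free counts and -0.061 relative to nuclear protein-coding genes of 500 to 1000 bases and a mean of 50 TPM or more (chosen after seeing the data). The median ratio of alignment-free to gene-table TPM, 1.77 over members at 1 TPM or more, was 1.75 without fractional counts, 1.04 after both were rescaled to nuclear protein-coding genes and 1.76 to 1.77 when a replicate was left out. The cause of these shifts was not tested. The count of members at 1 TPM in both libraries, 46, was 46 or 47 under the alternatives that keep this threshold, 46 at 0.5 TPM and 41 at 5 TPM. Adding copies to complex V and dropping the second Atp5o entry, chosen after seeing the data, gave a median of 153 TPM. No paired analysis was possible because there is 1 group and no contrast.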
